A study of Mus musculus with 32 samples.

Results

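The growth hormone, STAT5 and IGF axis of the mouse liver was followed through 10 genes, namely Ghr, Stat5b, Igf1, Igfals, Socs2, Cish, Bcl6, Cux2, Igfbp1 and Igfbp2. The genes were chosen by their roles in the axis, with earlier results of these data known. All 10 were found by symbol among the 41585 gene rows of both count tables. RNA from liver was sequenced in 32 libraries that form 8 groups of 4, with 16 libraries in a table for females and 16 in a table for males. All mice carry the strain label C57BL/6, and both genotypes are of the C57BL/6J background per the study's methods. WT mice were bought in, whereas Cyp2b-null mice, which lack Cyp2b9, Cyp2b10 and Cyp2b13 after CRISPR/Cas9 deletion, were bred by the study. Mice entered the study at 10 weeks of age and were fed for 8 weeks with either normal diet (ND) or a choline-deficient, amino acid-defined high-fat diet (CDAHFD) with 0.1% methionine and 62% fat, a diet used to model steatohepatitis. Within each sex the groups were therefore ND-fed WT, CDAHFD-fed WT, ND-fed Cyp2b-null and CDAHFD-fed Cyp2b-null mice. The 2 genotypes did not come from 1 colony, so colony and genotype cannot be told apart, and each sex has a table of its own, so sex and table cannot be told apart either. The sources used here do not state that each library came from a separate animal, so p-values measure the spread between these libraries.

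Growth hormone from the pituitary binds its receptor GHR on hepatocytes, where the kinase JAK2 phosphorylates STAT5B, and STAT5B then drives genes such as Igf1, Igfals, Socs2 and Cish. IGF1 leaves the liver as a hormone bound to IGF binding proteins and to the acid-labile subunit encoded by Igfals, while SOCS2 and CIS, the product of Cish, damp the receptor's signal. In rodents males secrete growth hormone in pulses and females more continuously, and this pattern sets the sex-biased expression of many liver genes, with BCL6 as a repressor tied to the male pattern and CUX2 as a regulator found in female liver.

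Library totals ran from 2906411 to 10166959 counts. Levels are given as CPM, that is counts scaled to a common library total, after scaling by TMM, a method that assumes most genes do not change, over all 32 libraries. Log2 changes are from edgeR's quasi-likelihood test, with p-values adjusted over all genes tested and a gene called at an adjusted p under 0.05. The deletion was seen in the counts: Cyp2b-null libraries had no more than 18 counts for Cyp2b9, 9 for Cyp2b10 and 2 for Cyp2b13, against 524 to 611 CPM of Cyp2b9 and 336 to 422 CPM of Cyp2b13 in ND-fed WT females. In ND-fed WT males Cyp2b9 held 0 to 15 counts and Cyp2b13 held 0 counts, so these 2 genes do not check the genotype there, and Cyp2b10, at 6.07 to 14.7 CPM, does. Gh, the growth hormone gene itself, had 0 counts in all 32 libraries, which allows up to 1.15 CPM in the shallowest library and covers counting error only. All 6 hepatocyte markers (Alb, Apoa1, Ttr, Cps1, Serpina1a and Ass1) were detected in every group. Their summed level had a median of 146000 CPM in ND-fed and 88700 CPM in CDAHFD-fed WT females, and of 124000 and 76000 CPM in WT males.

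**Figure D1:**
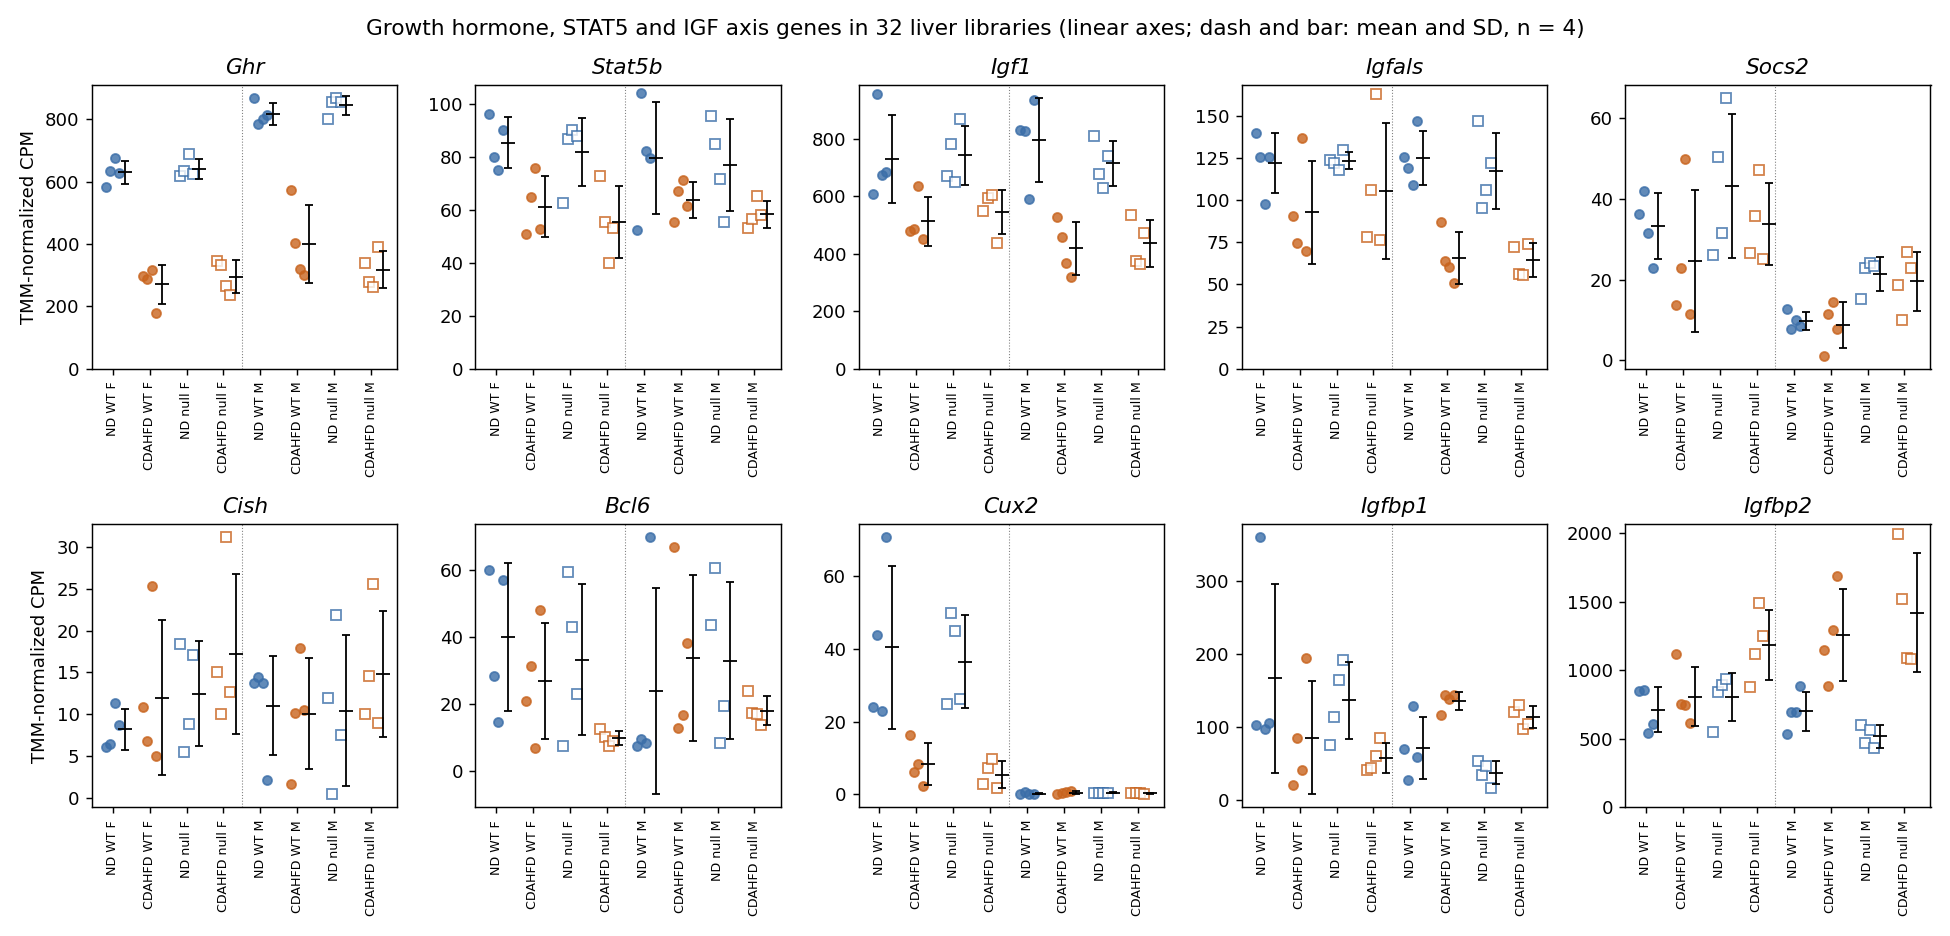
TMM-normalized CPM (linear axes) of the 10 genes in each library of the 8 groups, with blue for ND, orange for CDAHFD, filled circles for WT and open squares for Cyp2b-null, and the mean and SD of 4 libraries beside them. The Ghr points of the CDAHFD groups lie below those of the ND groups in both sexes, and Cux2 is above 1 CPM in female libraries and below it in male libraries.

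The CDAHFD lowered Ghr in both sexes and genotypes and Cux2 in both female genotypes. In both male genotypes it lowered Igf1 and Igfals and raised Igfbp1 and Igfbp2. Of all members, only Igfbp1 in Cyp2b-null mice was called for a difference between the sexes in the diet effect. In WT females 3 of the 10 genes fell (Ghr, Igf1 and Cux2) and 0 rose, where 24.1% of all 13226 genes tested were called, 10.2% lower and 13.9% higher. In Cyp2b-null females Ghr, Stat5b, Bcl6 and Cux2 fell and Igfbp2 rose, which is 5 of 10 against 30.8% of all genes (13.9% lower, 16.9% higher). In WT males Ghr, Igf1 and Igfals fell and Igfbp1 and Igfbp2 rose, which is 5 of the 9 genes that could be tested (Cux2 had too few counts) against 33% of 13460 genes (15% lower, 18% higher). The same 5 genes were called in Cyp2b-null males, where 37.4% of all genes were called (17.1% lower, 20.3% higher). These shares are above the background in 3 of the 4 comparisons and near it in WT females, but with 9 or 10 genes nothing particular to the axis is read from them.

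**Figure D2:**
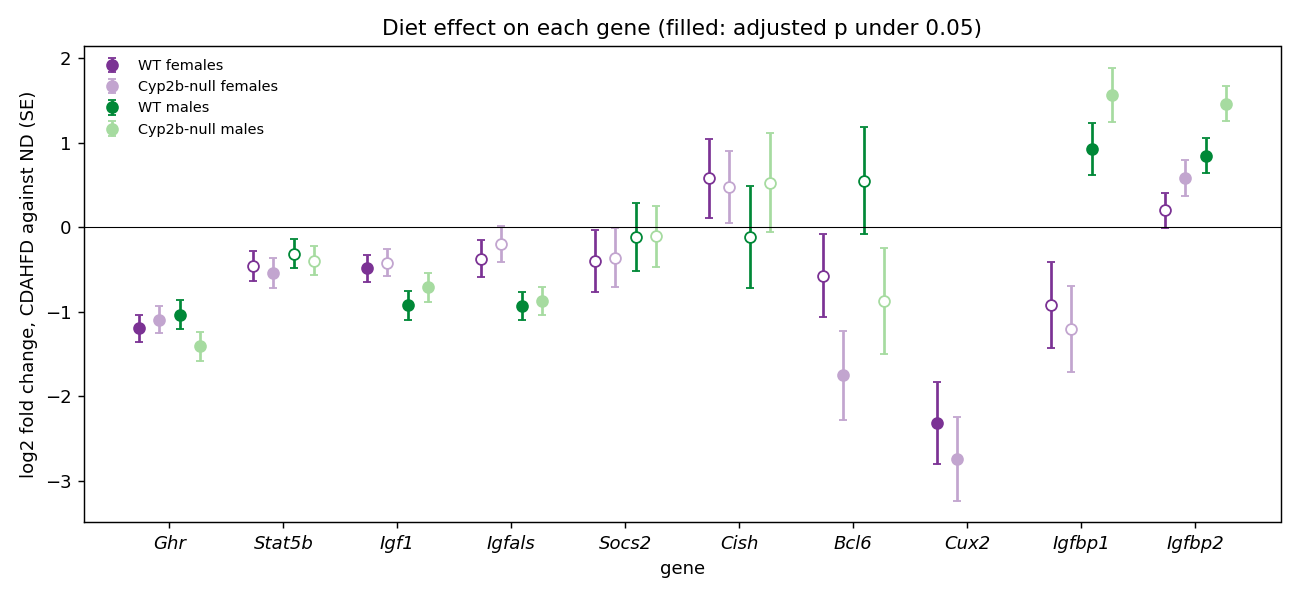
Log2 fold change of CDAHFD against ND (vertical axis, with its SE) for each gene in WT and Cyp2b-null mice of each sex, with filled points for an adjusted p under 0.05. Ghr lies between -1.41 and -1.03 in all 4 comparisons, and Igfbp1 lies below 0 in females (not called, and 0.05 in WT females when scaled to the hepatocyte markers) and above 0 in males (called).

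Ghr, on chromosome 15 (chr15:3317755-3583352, minus strand, GRCm38.p6), encodes the receptor through which the liver senses growth hormone. In WT females it was 584, 633, 675 and 628 CPM on the ND and 298, 288, 316 and 179 CPM on the CDAHFD. In WT males it was 869, 785, 802 and 814 CPM on the ND and 574, 403, 320 and 299 CPM on the CDAHFD. The groups did not overlap in either sex, which was also true of 25.4% of genes for WT females and of 27.9% for WT males. The log2 change was -1.20 ± 0.16 (SE) in WT females (edgeR adjusted p = 1.23e-05) and -1.03 ± 0.168 in WT males (edgeR adjusted p = 6.32e-05).

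Cyp2b-null mice showed the same fall of Ghr. Females had 617, 635, 689 and 626 CPM on the ND against 344, 334, 266 and 237 CPM on the CDAHFD, a log2 change of -1.09 ± 0.16 (edgeR adjusted p = 3.09e-05). Males had 802, 856, 870 and 856 CPM on the ND against 340, 279, 263 and 390 CPM on the CDAHFD, a log2 change of -1.41 ± 0.169 (edgeR adjusted p = 1.25e-06). Without any 1 library the call was kept in all 4 comparisons, in fits that each left out 1 of 16 libraries. When counts were instead scaled to the 6 hepatocyte markers, the Ghr change shrank to -0.47 in WT females, -0.39 in WT males and -0.74 in Cyp2b-null males (adjusted p = 0.0339, 0.0323 and 0.000216), and to -0.40 in Cyp2b-null females, where it was no longer called (adjusted p = 0.0714). That scaling put the median of all genes at 0.737, 0.693, 0.698 and 0.729 in these comparisons, in the same order. Against those medians Ghr was -1.21, -1.08, -1.44 and -1.13. With TMM, Ghr against the median was -1.195, -1.011, -1.402 and -1.121. Its spread on the ND was small, with SDs of 30 to 37.1 CPM around means of 630 to 846 CPM.

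Stat5b, on chromosome 11 (chr11:100780731-100859004, minus strand), encodes the main transcription factor downstream of GHR in hepatocytes. It fell in Cyp2b-null females, from 62.6, 86.9, 90.2 and 87.8 CPM to 72.9, 55.4, 39.8 and 53.0 CPM, by 0.55 ± 0.176 on the log2 scale (edgeR adjusted p = 0.0228), although scaled to the hepatocyte markers the change was 0.17 (adjusted p = 0.533). The 2 groups overlapped by the lowest ND library and the highest CDAHFD library. In the other comparisons Stat5b was not called, with log2 changes of -0.46 in WT females (edgeR adjusted p = 0.0619), -0.32 in WT males (0.175) and -0.40 in Cyp2b-null males (0.0783). The Stat5b call in Cyp2b-null females was lost without ND-fed Cyp2b-null female 2, 3 or 4 or CDAHFD-fed Cyp2b-null female 3 or 4, with adjusted p-values of up to 0.0628, and with library size only (-0.28, adjusted p = 0.259).

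Igf1 and Igfals encode the hormone itself and the subunit that holds it in the circulating ternary complex. Igf1 lies on chromosome 10 (chr10:87858265-87937047, plus strand), and Igfals on chromosome 17 (chr17:24877844-24882011, plus strand). In males both fell without overlap between diets. Igf1 in WT males was 832, 829, 590 and 938 CPM on the ND and 530, 458, 368 and 321 CPM on the CDAHFD, a log2 change of -0.92 ± 0.171 (edgeR adjusted p = 0.000251). Igfals in WT males was 126, 119, 109 and 147 CPM on the ND and 87.4, 63.9, 60.4 and 50.8 CPM on the CDAHFD, a log2 change of -0.93 ± 0.165 (edgeR adjusted p = 0.000175). Cyp2b-null males had log2 changes of -0.71 ± 0.17 for Igf1 and -0.87 ± 0.165 for Igfals (edgeR adjusted p = 0.00224 and 0.000247). With scaling to the hepatocyte markers neither gene was called in either male genotype, as given with those markers.

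In females the changes of this pair were smaller and less even. Igf1 in WT females was 607, 957, 674 and 685 CPM on the ND and 481, 485, 638 and 450 CPM on the CDAHFD, and it fell by 0.49 ± 0.161 on the log2 scale (edgeR adjusted p = 0.032), whereas with scaling to the hepatocyte markers its change was 0.29 (adjusted p = 0.166). This Igf1 call was lost with library size only (-0.15, adjusted p = 0.432) and without ND-fed WT female 2 or CDAHFD-fed WT female 1, 2 or 4, with adjusted p-values of up to 0.143. In Cyp2b-null females Igf1 was lower in every CDAHFD library (439 to 606 CPM) than in every ND library (649 to 871 CPM), a lack of overlap shared by 30% of genes, but the log2 change of -0.42 was not called (edgeR adjusted p = 0.0529). Igfals was not called in females, with log2 changes of -0.37 in WT and -0.20 in Cyp2b-null mice (edgeR adjusted p = 0.234 and 0.514), and its highest level of all 32 libraries, 163 CPM, was in CDAHFD-fed Cyp2b-null female 3. The difference between the sexes in the diet effect was itself tested and was not called for either gene: it was -0.42 for Igf1 and -0.53 for Igfals in WT mice (edgeR adjusted p = 0.597 and 0.567).

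The fall of hepatocyte markers ran alongside these changes. Of the 6 hepatocyte markers 5 fell in WT females, 4 in Cyp2b-null females, 6 in WT males and 5 in Cyp2b-null males, with median log2 changes of -0.80, -0.58, -0.68 and -0.65. The summed level of 6 macrophage markers rose from a median of 474 to 971 CPM in WT females and from 212 to 1090 CPM in WT males, and that of 6 stellate cell markers from 195 to 439 and from 107 to 353 CPM. Of 5 cholangiocyte markers 2 or 3 rose in each comparison, and their sum was mostly Spp1, with mean levels of 39.1 CPM on the ND and 148 CPM on the CDAHFD in WT females and of 17.7 and 139 CPM in WT males. The other 4 (Krt7, Krt19, Epcam and Sox9) had group means of at most 10.2 CPM, and Krt19 was at 1.48 and 1.39 CPM in WT females. The 5 endothelial markers gave 0 higher and 1 lower in WT females and 1 higher and 1 lower in WT males, against 0 higher and 3 lower in Cyp2b-null females and 3 higher and 0 lower in Cyp2b-null males, while the 5 lymphocyte markers summed to at most 9.31 CPM in any library. Scaled to the hepatocyte markers, Igf1 in WT males changed by -0.26 (adjusted p = 0.194) and Igfals by -0.25 (adjusted p = 0.242), and in Cyp2b-null males these values were -0.04 (adjusted p = 0.862) and -0.19 (adjusted p = 0.374). Against the median of all genes under this scaling Igf1 was -0.95 and -0.73 and Igfals -0.95 and -0.89 in WT and Cyp2b-null males. In bulk liver, fewer hepatocytes and less RNA per hepatocyte cannot be told apart, and the part of cell composition in these changes was not tested further.

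Socs2 and Cish are STAT5 target genes whose products feed back on the receptor. Socs2 lies on chromosome 10 (chr10:95383903-95417321) and Cish on chromosome 9 (chr9:107296659-107302784, plus strand). In the RefSeq promoter windows of GRCm38.p6, which span 250 bases before to 50 after each annotated start, the letters TTCNNNGAA, the palindromic form bound by STAT5 dimers, were searched, and both strands read the same. Of 32851 windows in the genome 8.3% held it at least once and 0.457% at least 2 times. A window was found for 9 of the 10 genes, 16 windows in all, and Igfals, Cish and Bcl6 were the 3 genes with a match, in 5 windows. The Cish window held 2 copies, which began at the annotated start base and 11 bases after it. The 2 Igfals matches began 236 and 58 bases before their starts (chr17:24877598-24877626 and chr17:24878163-24878191, plus strand). They are shown after the Cish stretch (chr9:107296656-107296685, plus strand), with the match in capitals.
Cish: gttTTCCTGGAAagTTCTTGGAAatctgtc
Igfals, first start: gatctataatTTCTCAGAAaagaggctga
Igfals, second start: ctgccaggtgTTCCTAGAAgaggccctgg
A match of letters is a description and not a measured binding site, and a window without one says only that these letters are not in it.

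Neither feedback gene was called for diet in any of the 4 comparisons with all libraries. Socs2 had log2 changes of -0.40 ± 0.366 in WT females, -0.36 ± 0.351 in Cyp2b-null females, -0.12 ± 0.405 in WT males and -0.11 ± 0.362 in Cyp2b-null males (edgeR adjusted p = 0.478, 0.464, 0.856 and 0.836). Without CDAHFD-fed WT female 3, at 50 CPM, the Socs2 change in WT females was -1.03 and called (adjusted p = 0.0246). Cish was low, at 0.456 to 31.2 CPM over the 32 libraries. It was 6.16, 6.5, 11.4 and 8.79 CPM in ND-fed and 10.9, 6.85, 25.3 and 5.0 CPM in CDAHFD-fed WT females. It was 13.8, 14.4, 13.7 and 2.19 CPM in ND-fed and 1.71, 10.2, 17.9 and 10.5 CPM in CDAHFD-fed WT males. In each of these male groups 3 libraries lay above 10 CPM and 1 lay near 2 CPM. Diet changes of Cish were 0.58 and 0.47 in WT and Cyp2b-null females and -0.12 and 0.52 in WT and Cyp2b-null males on the log2 scale, with edgeR adjusted p-values of 0.414, 0.429, 0.906 and 0.522, and scaled to hepatocyte markers Cish was called higher in WT females (1.26, adjusted p = 0.004) and Cyp2b-null females (1.14, adjusted p = 0.00564). The median of all genes was then 0.737 and 0.729. Against those medians Cish was 0.527 and 0.411, and with TMM it was 0.579 and 0.446 against the median.

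Socs2 was called between the sexes in WT mice. In ND-fed WT mice it was 36.4, 42.1, 31.6 and 22.8 CPM in females and 12.7, 7.78, 9.88 and 8.53 CPM in males, with no overlap, which held for 18% of genes. Males were lower by a log2 difference of -1.75 ± 0.421 (edgeR adjusted p = 0.00361). On the CDAHFD, WT females had 13.8, 22.9, 50 and 11.6 CPM and WT males 1.14, 11.4, 14.5 and 7.81 CPM, a log2 difference of -1.45 ± 0.421 (edgeR adjusted p = 0.0239). That call was lost without CDAHFD-fed WT female 3 or CDAHFD-fed WT male 1, with adjusted p-values of up to 0.201. Cyp2b-null males lay closer to females, with log2 differences of -1.06 on the ND (edgeR adjusted p = 0.0687) and -0.78 on the CDAHFD (edgeR adjusted p = 0.15). The macrophage markers moved with sex on the ND too, where all 6 were lower in WT males than in WT females and also in Cyp2b-null males than in Cyp2b-null females, and their part in the Socs2 difference was not tested.

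Bcl6 and Cux2 encode repressors linked to opposite sex patterns of growth hormone. Bcl6 lies on chromosome 16 (chr16:23965050-23988866, minus strand) and had 2 windows with the STAT letters, of which one held 3 copies, as did only 11 of the 32851 windows (0.0335%). These copies began 168, 122 and 88 bases before the start (chr16:23981433-23981461, chr16:23981387-23981415 and chr16:23981353-23981381, minus strand) and are shown in that order with the single copy, 118 bases before the other start (chr16:23988952-23988980, minus strand).
Bcl6, first copy: aggccgcggcTTCCTGGAAagttacttct
Bcl6, second copy: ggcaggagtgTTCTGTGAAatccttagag
Bcl6, last copy: atcgactacgTTCCGGGAAtgagagggct
Bcl6, other start: agcaaattagTTCTCAGAAttccagaggc

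Bcl6 was uneven among libraries of the same group. In ND-fed WT males it was 7.36, 9.43, 8.37 and 70.0 CPM, and in CDAHFD-fed WT males 66.9, 12.9, 16.8 and 38.3 CPM. In ND-fed Cyp2b-null females it was 7.56, 59.3, 43.0 and 23.1 CPM, and in CDAHFD-fed Cyp2b-null females 12.6, 10.2, 7.5 and 9.05 CPM. The fall in Cyp2b-null females was the only diet call, a log2 change of -1.75 ± 0.531 (edgeR adjusted p = 0.0162), and without ND-fed Cyp2b-null female 2 its adjusted p was 0.0965. In WT males the log2 change was 0.55 (edgeR adjusted p = 0.542), and without ND-fed WT male 4 it was 1.995 with an adjusted p of 0.00932. Bcl6 was not called between the sexes. Males differed from females by -0.84 on the ND and 0.32 on the CDAHFD in WT mice (edgeR adjusted p = 0.383 and 0.792). In Cyp2b-null mice these log2 differences were -0.01 and 0.89 (edgeR adjusted p = 0.995 and 0.373). Without ND-fed WT male 4, Bcl6 was called lower in ND-fed WT males than females (edgeR adjusted p = 0.0141). The 3 libraries with most Bcl6 were low in Cish: ND-fed WT male 4 had 70.0 CPM of Bcl6 and 2.19 of Cish, CDAHFD-fed WT male 1 had 66.9 and 1.71, and ND-fed Cyp2b-null male 2 had 60.6 and 0.456.

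This opposition between Bcl6 and Cish was seen in both sexes, though not in every group. In 6 of 8 groups the library highest in Bcl6 was the lowest in Cish, and in 5 of 8 the library lowest in Bcl6 was the highest in Cish. In CDAHFD-fed Cyp2b-null males neither was so. After each group's mean was subtracted from log2 CPM, Pearson's r over the 32 libraries was -0.754 (permutation p = 2e-05, adjusted p over 6 pairs = 0.00012) and Spearman's rho was -0.742 (permutation p = 3e-05, adjusted p = 0.00018). Pearson's r was -0.807 among the 16 female and -0.77 among the 16 male libraries (permutation tests, adjusted p = 0.00354 and 0.0236), and -0.728 without the 2 libraries farthest from the median of Bcl6 (permutation test, adjusted p = 0.00066). That last fit kept ND-fed Cyp2b-null male 2, where Cish had 2 counts, and leaving out libraries by their Cish level was not tested. Within the sexes Spearman's rho was -0.835 in females and -0.615 in males (permutation tests, adjusted p = 0.00318 and 0.0692). The permutations were 2-sided and kept libraries within their groups.

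The other 5 pairs were weaker. Ghr and Igf1 deviated together, with r = 0.557 (permutation p = 0.00565, adjusted p = 0.0169) and rho = 0.491 (permutation p = 0.0159, adjusted p = 0.0477), and r was 0.394 in females and 0.691 in males (permutation tests, adjusted p = 0.34 and 0.0417). Bcl6 and Socs2 had r = -0.416 and Cish and Socs2 r = 0.421, both with a permutation adjusted p of 0.0547, and rho of -0.407 and 0.355 (permutation adjusted p = 0.0743 and 0.108). Igf1 and Socs2 had r = 0.0492 over all libraries (permutation adjusted p = 0.864), from r = 0.751 in females and -0.387 in males (permutation adjusted p = 0.00354 and 0.329). Igfbp1 and Igfbp2 had r = 0.107 (permutation adjusted p = 0.733). With scaling by library size only, r for Bcl6 and Cish was -0.717 (permutation adjusted p = 0.00042).

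**Figure D3:**
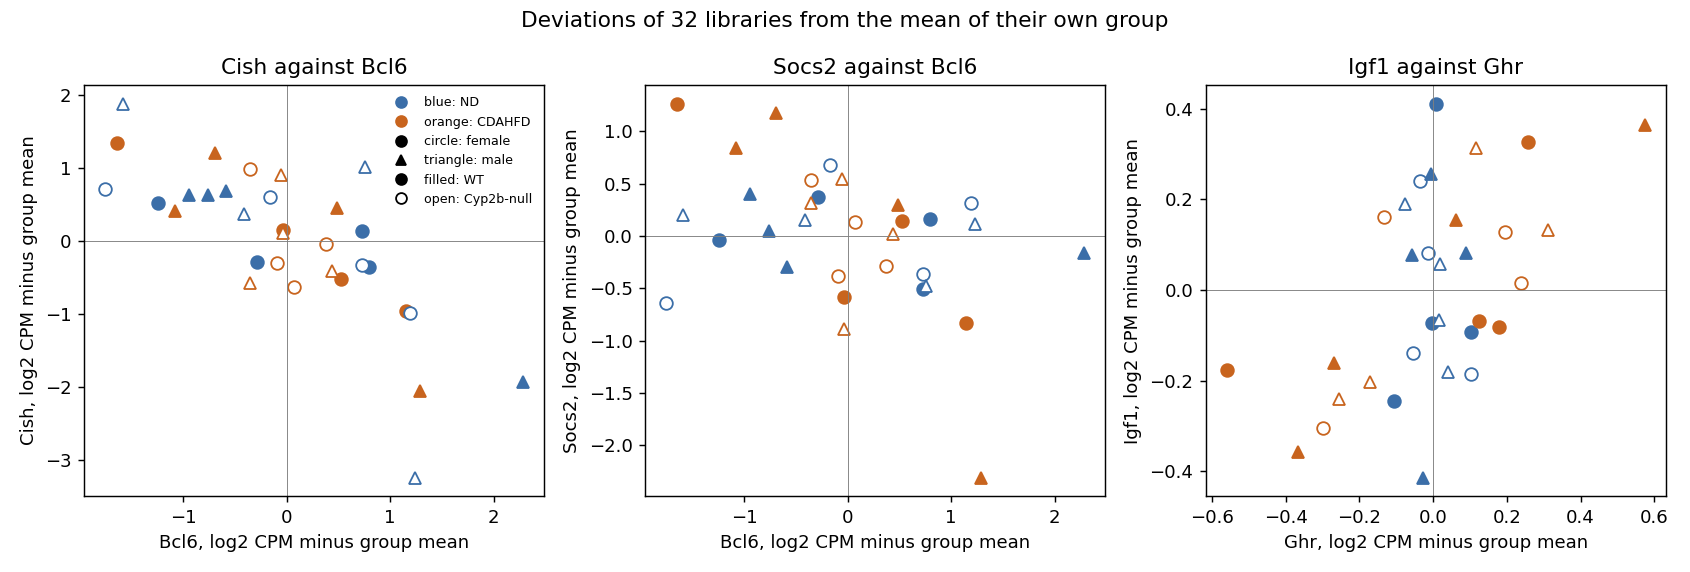
Deviation of each library from its group's mean in log2 CPM, for Cish against Bcl6, Socs2 against Bcl6 and Igf1 against Ghr (blue ND, orange CDAHFD, circles female, triangles male, filled WT, open Cyp2b-null). Libraries with high Bcl6 lie at low Cish (r = -0.754 over 32 libraries), and the other 2 pairs scatter more widely.

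Cux2, on chromosome 5 (chr5:121857962-122050415, minus strand), was read almost only in females. ND-fed females had 24.1, 44.0, 22.9 and 71.0 CPM (WT) and 24.8, 50, 44.9 and 26.3 CPM (Cyp2b-null), whereas no male library had more than 5 counts. From summed counts, the female to male ratio in ND-fed WT mice was 255 (exact 95% interval for counting error only 99.0 to 937, from 716 and 4 counts) and in ND-fed Cyp2b-null mice 102 (51.3 to 237, from 608 and 8 counts). With the CDAHFD Cux2 fell in females, to 16.2, 6.14, 8.37 and 2.34 CPM in WT and to 2.77, 7.3, 9.82 and 1.69 CPM in Cyp2b-null mice. No CDAHFD library reached the lowest ND library of its genotype. The log2 changes were -2.32 ± 0.48 and -2.74 ± 0.496 (edgeR adjusted p = 0.00111 and 0.000294), the largest of any member. The ratio of females to males on the CDAHFD was 17.1 (9.31 to 35.0, from 157 and 11 counts) in WT and 18.9 (9.66 to 42.4, from 126 and 9 counts) in Cyp2b-null mice. Males on both diets were too low for a change in them to be detectable at this depth.

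Igfbp1 and Igfbp2 encode liver-made binding proteins for IGFs, of which Igfbp1 is under acute control by insulin and fasting. Igfbp1 lies on chromosome 11 (chr11:7197787-7202546, plus strand) and Igfbp2 on chromosome 1 (chr1:72824480-72852474, plus strand). Igfbp2 rose in both male genotypes without overlap. WT males had 537, 692, 693 and 882 CPM on the ND and 1150, 885, 1290 and 1690 CPM on the CDAHFD, a log2 change of 0.84 ± 0.209 (edgeR adjusted p = 0.00356). Cyp2b-null males had 603, 467, 566 and 431 CPM on the ND and 1990, 1520, 1090 and 1080 CPM on the CDAHFD, a log2 change of 1.46 ± 0.212 (edgeR adjusted p = 1.38e-05). In females Igfbp2 rose in Cyp2b-null mice, from 551 to 934 CPM on the ND to 877 to 1490 CPM on the CDAHFD (log2 change 0.58 ± 0.207, edgeR adjusted p = 0.0382), and was not called in WT mice (0.20, adjusted p = 0.535). In WT females Igfbp2 was called higher with library size only (0.52, edgeR adjusted p = 0.048) and scaled to the hepatocyte markers (0.92, edgeR adjusted p = 0.00055). The median change over all genes was then 0.317 and 0.737. The call in Cyp2b-null females was lost in fits without any of 5 of its 8 libraries (ND-fed 1 and 2, CDAHFD-fed 2, 3 and 4), with adjusted p-values of up to 0.135.

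Igfbp1 rose in males of both genotypes and was not called in females. In ND-fed WT females it was 103, 360, 96.6 and 106 CPM, and in CDAHFD-fed WT females 20.4, 85.2, 41.3 and 194 CPM. In ND-fed Cyp2b-null females it was 75.6, 113, 164 and 192 CPM, and in CDAHFD-fed Cyp2b-null females 41.0, 43.8, 61.0 and 85.2 CPM. Neither female change was called, at -0.92 ± 0.506 and -1.21 ± 0.511 on the log2 scale (edgeR adjusted p = 0.205 and 0.0778). In WT females the change ran from -1.74 without CDAHFD-fed WT female 4, where it was called (adjusted p = 0.0146), to -0.22 without ND-fed WT female 2, and scaled to the hepatocyte markers it was 0.05 (adjusted p = 0.918). Against the median of all genes under that scaling Igfbp1 in WT females was -0.69. In Cyp2b-null females the change was called with only the groups compared (adjusted p = 0.00611) and with 1 fit of both tables (adjusted p = 0.0417), and also without ND-fed WT female 2 or CDAHFD-fed WT female 1 or 4 (adjusted p as low as 0.0381). Males rose, from 69.3, 28.0, 129 and 59.3 to 117, 144, 138 and 143 CPM in WT and from 53.2, 34.4, 46.8 and 16.8 to 121, 130, 97.2 and 104 CPM in Cyp2b-null mice. The male groups overlapped in WT and not in Cyp2b-null mice. The log2 changes were 0.92 ± 0.311 (edgeR adjusted p = 0.0266) and 1.56 ± 0.321 (edgeR adjusted p = 0.00057).

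The difference between the sexes in the Igfbp1 diet effect was called in Cyp2b-null mice, at 2.79 ± 0.665 (edgeR adjusted p = 0.0149, where 3.4% of all 14020 genes were called, 2.09% higher and 1.31% lower), and was 1.87 ± 0.652 in WT mice (edgeR adjusted p = 0.211, with 0.97% called, 0.67% higher and 0.3% lower). It was the only member called in either test of diet by sex, 1 of 10 in Cyp2b-null and 0 of 10 in WT mice, where 3 members had an unadjusted p under 0.05 in each and DESeq2 called 1 and 0. The WT male call of Igfbp1 was lost without any 1 of 6 libraries (ND-fed 1, 2 and 4 and CDAHFD-fed 2, 3 and 4), with adjusted p-values of up to 0.0712, with DESeq2, at 0.0521, and with 1 fit of both tables, at 0.128. In ND-fed Cyp2b-null mice Igfbp1 was lower in males than in females by a log2 difference of -1.83 ± 0.479 (edgeR adjusted p = 0.00889).

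Between the sexes 2 or 3 of the 10 members were called in each comparison, near or above the share over all genes. On the ND 2 of 10 members were lower and 0 higher in WT males than in WT females (Socs2 and Cux2), where 17.8% of genes were called (9.45% lower, 8.35% higher), and the same count in Cyp2b-null mice was 2 and 0 (Cux2 and Igfbp1) against 13.3% (7.13% lower, 6.13% higher). On the CDAHFD Ghr was higher and Socs2 and Cux2 were lower in WT males (3 of 10 against 11% of genes, 5.12% lower and 5.91% higher), and Cux2 and Igfals were lower in Cyp2b-null males (2 of 10 against 18.1%, 9.05% lower and 9.06% higher). Ghr in CDAHFD-fed WT males exceeded that in females by 0.56 ± 0.167 (edgeR adjusted p = 0.0276), a call lost without CDAHFD-fed WT female 2 or 4 or CDAHFD-fed WT male 1 or 2, with adjusted p-values of up to 0.203. On the ND the 4 male libraries of each genotype lay above all female libraries in Ghr, as 18% and 20.2% of genes did in either direction, yet the log2 differences of 0.38 and 0.40 were not called (edgeR adjusted p = 0.113 and 0.108). Igfals in CDAHFD-fed Cyp2b-null males was lower by a log2 difference of -0.72 ± 0.205 (edgeR adjusted p = 0.0143), a call lost without CDAHFD-fed Cyp2b-null female 3 or CDAHFD-fed Cyp2b-null male 3, with adjusted p-values of up to 0.156.

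No member was called for the loss of Cyp2b. In edgeR 0 of 10 members passed in ND-fed and CDAHFD-fed females and 0 of 9 in ND-fed and CDAHFD-fed males, where 0.0756%, 0.0227%, 0.0371% and 0.0297% of genes were called. In ND-fed females these were 0.0151% higher and 0.0605% lower. At an unadjusted p under 0.05 the counts were 0, 2, 3 and 1, and DESeq2 called 0 members in each of the 4 comparisons. The largest log2 difference was for Bcl6 in CDAHFD-fed females, at -1.47 ± 0.529 (edgeR adjusted p = 0.826), with 21.0, 31.2, 6.78 and 48.0 CPM in WT and 12.6, 10.2, 7.5 and 9.05 CPM in Cyp2b-null mice, which overlap. Socs2 in males had the lowest unadjusted p-values, 0.00855 on the ND and 0.00759 on the CDAHFD. ND-fed Cyp2b-null males had 15.1, 22.8, 24.2 and 23.5 CPM, all above the 4 WT libraries at 7.78 to 12.7 CPM, as was true in either direction of 3.82% of genes. The log2 difference of Socs2 was 1.12 ± 0.387 on the ND (edgeR adjusted p = 0.416) and 1.13 ± 0.382 on the CDAHFD (edgeR adjusted p = 1.0), so it was not distinguishable from the spread between libraries once all genes were taken into account. No member was called for a difference in diet effect between genotypes, with 0 of 10 in females, where 0% of genes were called, and 0 of 9 in males (0.00743%), and with log2 differences between -1.43 and 0.64. At an unadjusted p under 0.05 these counts were 0 and 1, and DESeq2 called 0 in both.

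The rest of the pathway was read from a list of 48 further genes, of which 41 could be tested in females and 40 in males. With the CDAHFD 3 rose and 5 fell in WT females, 7 rose and 10 fell in Cyp2b-null females, 7 rose and 10 fell in WT males, and 13 rose and 6 fell in Cyp2b-null males. Over all genes 24.1%, 30.8%, 33% and 37.4% were called in these comparisons, so 8 of 41 in WT females lay below that share and the others somewhat above it. The median log2 changes were -0.05, -0.11, 0.03 and 0.13, against -0.00215, 0.0273, -0.0228 and -0.00832 over all genes tested.

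Among 13 receptors and signalling genes the prolactin receptor gene Prlr, a second STAT5-coupled receptor, fell most in every comparison. It went from 370 to 478 CPM to 119 to 192 CPM in WT females (log2 change -1.37, edgeR adjusted p = 7.18e-06) and from 85.5 to 185 CPM to 44.3 to 82.6 CPM in WT males (log2 change -1.08, edgeR adjusted p = 0.00073). Irs1, an adaptor of the insulin and IGF1 receptors, fell in all 4 comparisons, by 0.52 to 0.88 on the log2 scale. The insulin receptor gene Insr fell in Cyp2b-null females and in both male genotypes. Stat5a, the close relative of Stat5b, rose by 0.43 in WT males and 0.42 in Cyp2b-null males (edgeR adjusted p = 0.0396 and 0.0386). Igf1r, which encodes the IGF1 receptor and is normally scarce in hepatocytes, rose in Cyp2b-null males (1.13, edgeR adjusted p = 0.0441).

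Of the negative regulators 11 of 12 could be tested, of which 2 rose in WT females, 3 rose and 1 fell in Cyp2b-null females, and 4 rose in males of each genotype, where 13.9%, 16.9%, 18% and 20.3% of all genes rose. Socs3, a cytokine-induced suppressor of JAK signalling, rose in females by 1.28 in WT and 1.31 in Cyp2b-null mice (edgeR adjusted p = 0.0153 and 0.0087). Ptpn6, a phosphatase that is mostly a product of blood cells, rose in all 4 comparisons, by 0.60 to 1.19. Grb10, an inhibitor of insulin and IGF1 receptors, rose in males by 1.20 and 1.07 (edgeR adjusted p = 0.0192 and 0.0202). Of the further ligands, binding proteins and proteases only 6 of 12 in females and 5 of 12 in males had enough counts. Igfbp7, a binding protein of vessel and stromal cells, rose in all 4 comparisons, by 0.67 to 1.27, and 1, 2, 1 and 3 genes of this group rose in WT females, Cyp2b-null females, WT males and Cyp2b-null males, while 0 fell. Most of the macrophage and stellate cell markers rose in the same 4 comparisons, and their part in the rise of Ptpn6 and Igfbp7 was not tested.

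Of the 11 liver-enriched and steroid receptor transcription factors tested, 3 fell in WT females, 5 in Cyp2b-null females, 7 in WT males and 3 in Cyp2b-null males, and 1 rose in Cyp2b-null males (Cebpb, 0.75, edgeR adjusted p = 0.0201), where 10.2%, 13.9%, 15% and 17.1% of all genes fell. Hnf4a, a master regulator of hepatocyte genes, fell in all 4 comparisons, by 0.58 in WT females, 0.78 in Cyp2b-null females, 0.74 in WT males and 0.39 in Cyp2b-null males on the log2 scale. The estrogen receptor gene Esr1 was called in females, where it fell by 0.96 in WT and 1.04 in Cyp2b-null mice (edgeR adjusted p = 0.00114 and 0.000479), and not in males (-0.34 and 0.45, edgeR adjusted p = 0.417 and 0.268), and the difference between the sexes was called in Cyp2b-null mice (1.51, edgeR adjusted p = 0.0228). Onecut1, a factor that responds to growth hormone, fell in WT males by 1.74 (edgeR adjusted p = 0.0426).

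Sex-biased hepatocyte genes, of the kind that the growth hormone pattern sets, were read next. Neither hormone levels nor STAT5 activity were measured, so changes of these genes are not a readout of the axis. In a list of 16 male-biased and 19 female-biased hepatocyte genes, all 16 were higher and all 19 lower in WT males than in WT females on the ND. The list was chosen with earlier results of these data known, so neither this nor the falls below are an independent test. Each set fell on the CDAHFD in the sex that expresses it. In males 14 of the 16 male-biased genes fell in WT and 15 in Cyp2b-null mice and 0 rose, with a median log2 change of -1.86 and -2.36. In females 16 of the 19 female-biased genes fell in WT mice, and 15 fell and 1 rose in Cyp2b-null mice, with median log2 changes of -2.47 and -1.93, which were the same with Sult3a1, at 1 count or fewer on the CDAHFD, set to its bound. Over all genes 15% fell in WT males, 17.1% in Cyp2b-null males, 10.2% in WT females and 13.9% in Cyp2b-null females. The hepatocyte markers fell in the same comparisons, with medians between -0.80 and -0.58 as given above.

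Single genes of these sets showed the scale. Hsd3b5, a male-specific steroid reductase, went from 216 to 349 CPM in ND-fed to 1.04 to 27.1 CPM in CDAHFD-fed WT males. Elovl3, a fatty acid elongase, went from 258 to 876 CPM to 8.34 to 30 CPM in the same groups. For both the groups did not overlap. In females Cyp2c69, a cytochrome P450, went from 782 to 1170 CPM to 9.37 to 26.0 CPM in WT mice, and the sulfotransferase gene Sult3a1 from 50.8 to 103 CPM to at most 0.236 CPM. Cyp3a16 went from 24.1 to 136 CPM to 0.598 to 1.97 CPM, although reads of Cyp3a16, Cyp3a41a, Cyp3a41b and Cyp3a44 may be shared among these near-identical genes.

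In the sex where they are low, some genes of each set rose and some fell. In WT females 3 of the 13 male-biased genes that could be tested rose and 3 fell, and in WT males 5 of 11 female-biased genes rose and 2 fell, with median log2 changes of 0.08 and 1.48, the same with genes at the floor set to their bound. In Cyp2b-null mice 3 of 13 male-biased genes rose and 3 fell in females (median -0.44), and 3 of 11 female-biased genes rose and 2 fell in males (median 0.40). Over all genes 13.9% rose in WT females, 16.9% in Cyp2b-null females, 18% in WT males and 20.3% in Cyp2b-null males. Mup20, which encodes a urinary pheromone protein, rose from 17.2 to 49.3 CPM in ND-fed to 397 to 866 CPM in CDAHFD-fed WT females (log2 change 4.72, edgeR adjusted p = 8.22e-10), against 693 to 1270 CPM in CDAHFD-fed WT males. C6, a complement protein, and Selenbp2 rose in WT females by 2.27 and 2.22. In males the female-biased Ntrk2, a neurotrophin receptor gene, rose from 0.823 to 1.31 CPM to 5.68 to 26.7 CPM in WT mice. Sult1e1, estrogen sulfotransferase, went from at most 1 count per library to 0.177 to 18.2 CPM in WT males. Mup20 may share reads with other Mup genes, so its level is uncertain.

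The difference in diet effect between the sexes was tested for each gene of both lists. It was called for 7 male-biased genes in WT and 11 in Cyp2b-null mice, all with a more negative effect in males, and for 7 female-biased genes in WT and 6 in Cyp2b-null mice, all with a less negative effect in males. Over all genes 0.97% were called in WT and 3.4% in Cyp2b-null mice. Some listed genes had too few counts in the other sex to fall there, so these directions follow in part from the lists. On the CDAHFD 11 of 16 male-biased genes were still higher in WT males than in WT females, and 15 of 19 female-biased genes were still lower, and in Cyp2b-null mice these counts were 9 and 13. Between the genotypes, which cannot be told apart from colony, 2 genes of these lists were called. Cyp2a4, a steroid hydroxylase gene, was 28.9 to 140 CPM in ND-fed Cyp2b-null and 1.92 to 4.8 CPM in ND-fed WT males (edgeR adjusted p = 0.00021) and 73.4 to 174 against 5.88 to 34.6 CPM on the CDAHFD (edgeR adjusted p = 0.0314). Cyp3a16 was 1.19 to 17.5 CPM in ND-fed Cyp2b-null and 24.1 to 136 CPM in ND-fed WT females (edgeR adjusted p = 0.00658). Cyp2a4 has a near-identical neighbour, Cyp2a5, so its counts are uncertain too. It also belongs to the Cyp2a cluster that flanks the Cyp2b deletion, and a local effect of the deletion on Cyp2a4 was not tested.

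**Figure D4:**
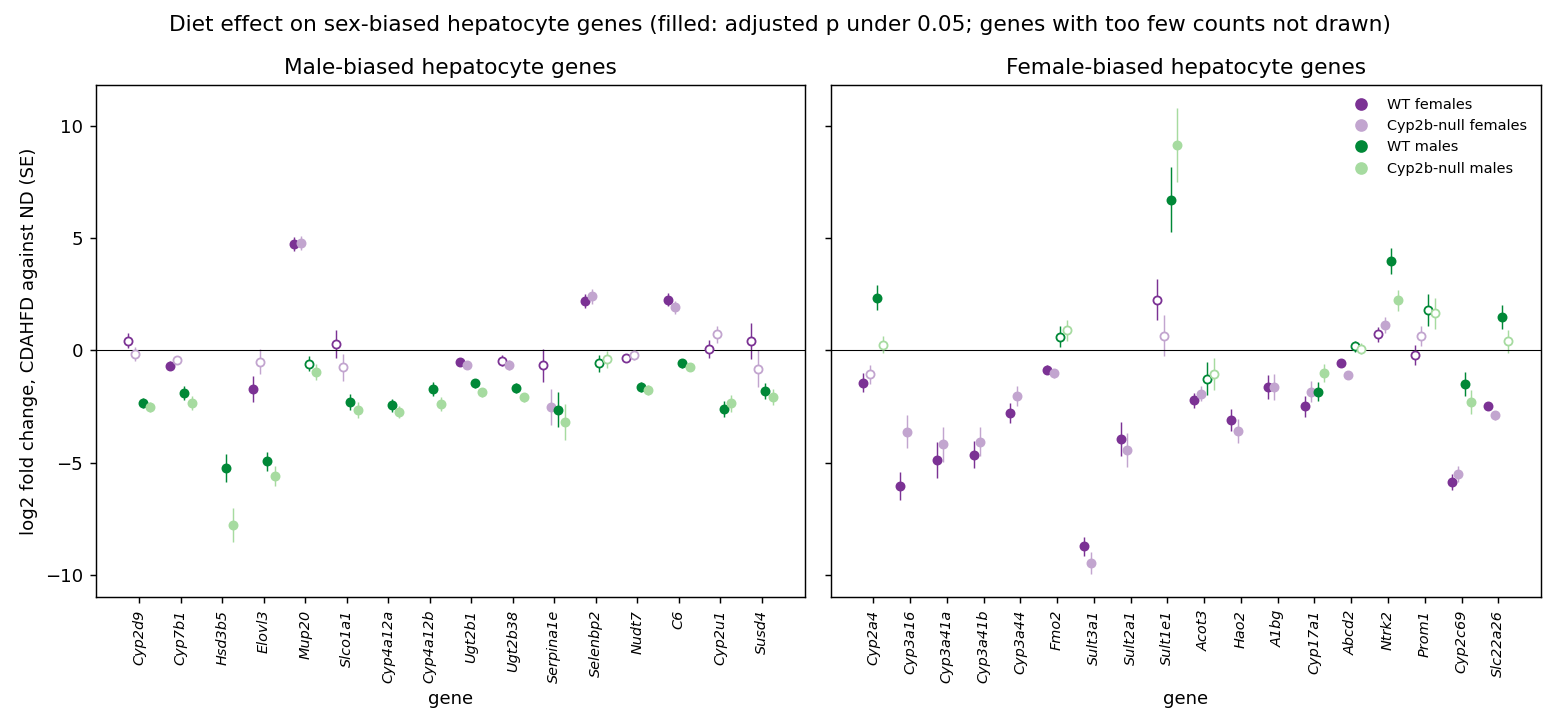
Log2 fold change of CDAHFD against ND (vertical axis, with its SE) for the 16 male-biased and all but 1 of the 19 female-biased hepatocyte genes in WT and Cyp2b-null mice of each sex, with filled points for an adjusted p under 0.05. Male-biased genes lie below 0 in males (14 of 16 called lower in WT) and female-biased genes lie mostly below 0 in females (16 of the 19 in the list called lower in WT); changes of genes at few counts depend on the prior count.

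By the deviations of the 32 libraries from their group means, compared with 10374 genes of at least 5 CPM on average, the genes most like Igf1 were Gm10069, Lifr, Mug1, Nrp1 and Pzp, with Pearson's r of 0.809, 0.794, 0.759, 0.747 and 0.745. The genes most like Socs2 were Tgfbi, Slc15a3, Adgre1, Atp6v1b2 and Psap, with r from 0.673 to 0.726, and Adgre1, at 0.684, is the macrophage marker known as F4/80. The genes most like Igfbp1 were Irf2bp2, Ddx28, Ip6k2, Fam114a1 and Lurap1l, with r from 0.644 to 0.798. These r describe the same 32 libraries and share their depths and scaling. Of the members, Ghr, Igf1, Igfals, Socs2, Bcl6 and Cux2 overlap a long noncoding RNA in the RefSeq annotation, whose counts, for the 5 that were in the tables, reached at most 57 (Igf1os) in any library. The strand setting of the counting was not given in the sources used here, so reads of such pairs cannot be told apart.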

How the data were processed

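Liver RNA was extracted with TRIzol, and libraries made with a NEB Next Ultra kit were sequenced as paired reads. Per the labels and methods, the authors trimmed reads with Trimmomatic after FastQC, used GSNAP for alignment to the GRCm38.p6 build, and obtained counts per gene from Subread featureCounts. The versions and the settings for strand and for reads with several matches are not given in the sources used here. The deposited values are raw counts of 41585 genes, 1 table for 16 female and 1 for 16 male libraries, and 0 columns were left unused. Groups were read from the titles and characteristics.

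Here each table was fitted alone with edgeR 4.0.16 in R 4.3.3 (TMM, filterByExpr with a minimum count of 10 and a total of 15, quasi-likelihood test, Benjamini-Hochberg over all genes tested), which left 13226 genes in females and 13460 in males. Tests of sex, and the CPM printed, came from 1 fit of all 32 libraries (14020 genes). Depth was 2906411 to 10166959 counts, which limits genes near 3 counts. The alternatives were RLE factors, library size only, no filter, 1 CPM in 4 libraries, a replicate block, DESeq2 1.42.0, fits of only the groups compared, 1 fit of both tables, leaving out each library, and scaling to 6 hepatocyte markers. Correlations used log2 CPM with a prior count of 1 and 100000 permutations within groups. On simulated data 86% of genes changed 2-fold and 100% of those changed 4-fold were called for diet in WT females (12951 genes). The simulation gave all genes the same spread and changed only genes above a minimum mean count. It therefore does not give the power for members that vary more, such as Bcl6, Cish and Socs2.

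The members and lists were chosen with earlier results of these data known. Named beside the members were the 3 genes with the largest called change in each direction, list and comparison, the 5 genes most alike, and the check genes, and not all are printed. Promoter windows and positions are RefSeq, GRCm38.p6. Socs2 had no window. The values of 1 gene in the female-biased list are not reported here, although it is in the list's counts.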

Additional observations from a re-analysis of the deposited data

Results flagged for a closer look

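In 5 of 80 groups tested, 1 of the 4 libraries lay far from the other 3 by Dixon's ratio, where chance flags about 1 in 20 groups. Stat5b in ND-fed Cyp2b-null females was lowest in replicate 1, at 62.6 CPM. Socs2 in ND-fed Cyp2b-null males was lowest in replicate 1, at 15.1 CPM. In ND-fed WT males replicate 4 was apart in both Cish (2.19 CPM) and Bcl6 (70.0 CPM). Igfbp1 in ND-fed WT females was highest in replicate 2, at 360 CPM.

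The diet effect on Igfbp1 differed between the sexes in Cyp2b-null mice, by 2.79 on the log2 scale (edgeR adjusted p = 0.0149, range over 7 alternatives 4.66e-32, without the low-count filter, to 0.0187, with the replicate block). The diet effect also differed between the sexes for 7 male-biased genes in WT and 11 in Cyp2b-null mice, and for 7 female-biased genes in WT and 6 in Cyp2b-null mice, where 0.97% and 3.4% of all genes were called.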

How the results depend on the processing

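Each library was left out in turn and the other choices were changed 1 at a time, and scaling to the hepatocyte markers was chosen after seeing the data. Ghr kept its fall and its call in WT females and in both male genotypes under all settings tried, and in Cyp2b-null females under all but the hepatocyte scaling. Library size only and hepatocyte scaling shifted the median of all genes on the CDAHFD by 0.28 to 0.37 and by 0.69 to 0.74 on the log2 scale. Against those medians Igf1 in WT females was -0.47 and -0.45 and Stat5b in Cyp2b-null females -0.56 and -0.56. On the scale itself hepatocyte scaling turned Igf1 in WT females to 0.286 and Stat5b in Cyp2b-null females to 0.170, and it left 3 members called in WT and 3 in Cyp2b-null males, with 8376, 7873, 7870 and 7958 genes called for diet against 3193, 4074, 4443 and 5038.

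Without the low-count filter the members called became 6 for diet in WT females, 1 and 2 for genotype on the CDAHFD in females and males, 2 for genotype on the ND in males, 1 and 1 for diet by genotype, 4, 6, 4 and 5 for sex (ND WT, CDAHFD WT, ND Cyp2b-null, CDAHFD Cyp2b-null) and 3 and 3 for diet by sex. With only the groups compared, members called for sex became 1 (CDAHFD WT), 5 (ND Cyp2b-null) and 4 (CDAHFD Cyp2b-null). Leaving out 1 library gave 2 to 6 members for diet in WT females (6 without CDAHFD-fed WT female 3), 2 to 7 in Cyp2b-null females (2 without ND-fed Cyp2b-null female 2 and 3 without CDAHFD-fed Cyp2b-null female 4), 2 to 4 and 1 to 2 for sex in ND-fed and CDAHFD-fed Cyp2b-null mice, and 0 to 1 for diet by sex in WT mice. The cause was not tested.

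All genes called for genotype in ND-fed females, CDAHFD-fed females, ND-fed males and CDAHFD-fed males were 10, 3, 5 and 4. Without the filter they were 122, 69, 170 and 51, with DESeq2 23, 5 and 61 in the first 3, and in ND-fed males 3 with library size only, 8 with the block, 2 with only the groups compared and 3 with 1 fit. Diet by genotype gave 0 in females and 1 in males, against 46 and 95 without the filter, 2 and 8 with DESeq2, 1 in females at 1 CPM, and 2 and 4 in males with library size only and with 1 fit. Sex on the ND in WT gave 2496 against 1534 and on the CDAHFD in Cyp2b-null mice 2539 against 1533 with only the groups compared. Diet by sex gave 136 in WT mice against 469 (no filter), 216 (DESeq2) and 79 (only the groups), and 477 in Cyp2b-null mice against 923 (no filter).

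For the correlations, Ghr and Igf1 gave 0.394 in females and 0.363 with library size only, Igf1 and Socs2 0.751 in females, Bcl6 and Socs2 -0.487 in males and -0.549 without the 2 farthest libraries, and Igfbp1 and Igfbp2 0.441 without them.

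The replicate numbers shared by the groups did not pair the libraries: 2 of 24 correlations of same-numbered libraries exceeded 0.1 in females and 3 of 24 in males. With the replicate block Igfbp1 was called lower in WT females (-1.19, adjusted p = 0.0473) and Cyp2b-null females (-1.19, adjusted p = 0.0347), Igf1 was called in Cyp2b-null females (adjusted p = 0.0488), and Igfbp2 there had an adjusted p of 0.0531. Depth limits Cux2 in males and Cish in single libraries.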
